A study of Mus musculus with 12 samples.

Results

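The accessible chromatin of 10 genes for ETS family transcription factors (Ets1, Ets2, Fli1, Erg, Etv6, Elf1, Elk3, Etv4, Etv5 and Gabpa) was described in C2C12 cells. C2C12 is an established mouse myoblast line that proliferates in serum-rich medium. Wild-type (WT) and Runx1KO (KO) cells, 3 samples each, were collected at day 0 from growth medium that contained 20% fetal bovine serum. The labels do not say whether the KO cells are 1 clone. The series holds 12 samples in 4 groups, and the 6 remaining samples, at day 2 in differentiation medium, were not analysed here. The genes were taken by name from 1 gene family, beside 16 others of that family, and not by a peak value, but they were chosen with earlier results of these data known. A peak belonged to a gene when its centre lay in the gene body or within 10 kb of it, which gave 31 of the 34118 WT peaks and 28 of the 27187 KO peaks. Each peak value comes from the replicate 1 library of its genotype, so no value has a replicate error and no difference between genotypes was tested.

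ETS factors share a DNA-binding domain that recognises sequences around a GGAA core, and the bases beside the core and partner proteins set which member binds where. ETS1 is a classic partner of RUNX1, since the pair binds neighbouring sites together and each relieves the other's autoinhibition. The series is concerned with the part of Runx1 that interacts with ETS factors in muscle differentiation. The peaks described here lie at the genes that encode ETS factors. They do not measure ETS protein, its binding or its pairing with RUNX1. ATAC-seq maps open DNA by the cuts of the Tn5 transposase. An open region at a gene is not a readout of its expression.

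The RefSeq promoter table of build GRCm38.p6 held 11 windows for 7 of the 10 genes, each from 250 bases before to 50 bases after a gene start. The table has no entry for Ets1, Fli1 or Etv4. Its start of Gabpa, chr16:84835124, lies inside the span of that gene in the gene table, as does most of the Gabpa stretch below. The 4 stretches below are printed because they show the range of promoters among the 10 genes. Each is the part of the window that lies before the gene start and inside the WT peak, 5′ to 3′ on the gene's own strand, with every GGAA on either strand in capitals. Gabpa (chr16:84834874-84835119, plus strand) has the most GGAA cores of the stretches cut in this way, Etv6 (chr6:134035450-134035699, plus strand) has the widest WT peak, Elk3 (chr10:93311160-93311249, minus strand) has the only WT specific peak of the 10 genes across a gene start, and Etv5 (chr16:22439586-22439820, minus strand) has the promoter peak with the highest −log10 q of the 10 genes in WT.
Gabpa: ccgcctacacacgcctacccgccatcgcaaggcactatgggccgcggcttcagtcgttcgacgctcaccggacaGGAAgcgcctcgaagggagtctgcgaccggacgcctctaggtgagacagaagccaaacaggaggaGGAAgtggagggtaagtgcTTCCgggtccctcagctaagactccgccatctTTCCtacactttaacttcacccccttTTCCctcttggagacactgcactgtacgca
Etv6: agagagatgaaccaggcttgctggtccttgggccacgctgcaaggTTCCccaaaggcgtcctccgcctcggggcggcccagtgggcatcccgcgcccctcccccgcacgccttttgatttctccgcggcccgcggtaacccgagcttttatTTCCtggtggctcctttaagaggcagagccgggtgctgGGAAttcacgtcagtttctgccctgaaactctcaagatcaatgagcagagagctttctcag
Elk3: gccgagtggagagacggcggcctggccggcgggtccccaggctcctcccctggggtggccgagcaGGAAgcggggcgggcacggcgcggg
Etv5: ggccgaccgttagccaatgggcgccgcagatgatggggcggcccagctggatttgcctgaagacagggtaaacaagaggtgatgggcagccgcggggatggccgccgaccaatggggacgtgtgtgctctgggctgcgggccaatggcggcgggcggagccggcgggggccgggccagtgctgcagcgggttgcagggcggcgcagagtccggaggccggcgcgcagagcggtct

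The capitals count 5 cores at Gabpa, 3 at Etv6, 1 at Elk3 and 0 at Etv5. A GGAA was found in 96.0% of the 32851 windows of the table, so its presence sets no promoter apart. The longer letters CCGGAA, which contain that core, were in 14.9% of all windows and in 1 of the 11 windows of these genes, that of Gabpa, on the minus strand. Both strands were searched for every motif. Of the RUNX letters, TGTGGT (16.8% of all windows) was in 0 of the 11 windows. The other RUNX form, TGCGGT (6.45% of all windows), was in 1, the second Etv5 window, which held no peak. The AP-1 letters TGANTCA (7.81% of all windows) were in 1, the second Elf1 window, also without a peak. The E-box CAGCTG (16.3%) was in 1, the first Etv5 window, inside the peak of both genotypes. The first windows of Ets2, Etv6, Elf1, Elk3, Etv5 and Gabpa held 30, 17, 43, 31, 37 and 22 CpG, against a median of 7 over all windows. The windows without a peak had 16, 2 and 4 CpG at Erg, 19 at the second start of Etv5 and 3 at the second start of Elf1, so some were also above that median.

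The window of Runx1, the targeted gene, held 19 WT peaks and 12 KO peaks. Of the WT peaks, 7 were WT specific, beside 27.3% of the whole WT list. None of the KO peaks was KO specific, beside 9.59% of the whole KO list. These counts cannot check the genotype labels, because the lists hold no readout of the edited allele. Of 8 myoblast marker genes, 6 had a WT peak and 5 a KO peak. Des and Chrna1 had one at a gene start in both lists, Myod1 had one near a gene end in both, Pax7 had 1 WT peak and no KO peak, and Myf5 and Myog had none in either list. Of 12 markers of leukocytes, endothelium, epithelium and neurons, 8 had a WT peak and 7 a KO peak. Within 1 kb of a gene start or end, only Tubb3 and Spi1 had one, in both lists. The strand of Spi1 is not in the table, so its peak lay near a gene end that may not be its start, and it also lay in the window of Mybpc3. Ptprc, Epcam, Neurod1 and Snap25 had no peak. How deeply either library was sequenced is unknown.

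Most open regions of the ETS genes were present in both genotypes. Of the 31 WT peaks, 26 overlapped a KO peak by at least 1 bp and are called shared. The other 5 (16.1%) were WT specific, against 27.3% of the whole WT list. Of the 28 KO peaks, 26 were shared and 2 (7.14%) were KO specific, against 9.59% of the whole KO list. The WT specific peaks lay at Ets1 (2), Etv6, Elk3 and Gabpa (1 each), and the KO specific peaks at Ets1 and Elf1 (1 each). A WT specific peak was therefore present at 4 of the 9 genes with a peak (44.4%), beside 38.4% of the 14224 protein-coding genes with one. A KO specific peak was present at 2 of 9 (22.2%), beside 11.3% of those genes. Shares by gene, here and below, also depend on how many peaks each gene has, and genes were not matched for that. By peak, the KO share was below that of the list. These shares rest on 5 and 2 peaks and describe the lists only.

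The members differed widely in how many open regions they had. Etv6 had 9 WT peaks, and 2.28% of the protein-coding genes with a peak had as many or more. Ets1 had 7 and Elk3 had 5, counts reached by 4.39% and 9.84% of those genes. Ets2, Elf1, Etv5 and Gabpa had 2 each, which is the median of those genes, Erg and Etv4 had 1 each, and Fli1 had 0. Long genes can hold more peaks. Per 100 kb of gene and flanks, Elk3 had 5.97 WT peaks, Ets2 had 5.18, Ets1 had 4.94, Etv6 had 3.54 and Erg had 0.404, and the median of genes with a peak was 3.73. No peak lay in the windows of 2 members. The window of another protein-coding gene also held 5 of the 31 WT peaks and 4 of the 28 KO peaks. These were the promoter peaks of Etv6 (Gm46977), Elf1 (Wbp4) and Gabpa (Atp5j and Jam2, for all Gabpa peaks) and the peak beyond Elf1 (Sugt1). They cannot be given to 1 of the genes from position alone. Just inside the 10 kb limit, the outermost centres kept were those of the peaks beyond Ets2, 7.97 kb from the gene in WT (fold 10.9) and 7.99 kb in KO (fold 12.7). Just outside it, the nearest centres dropped were those of a WT specific peak 12.9 kb from Etv4 (fold 9.82) and of a shared peak 13.5 kb from Ets1 in both lists (fold 11.2 in WT and 8.78 in KO).

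**Figure D1:**
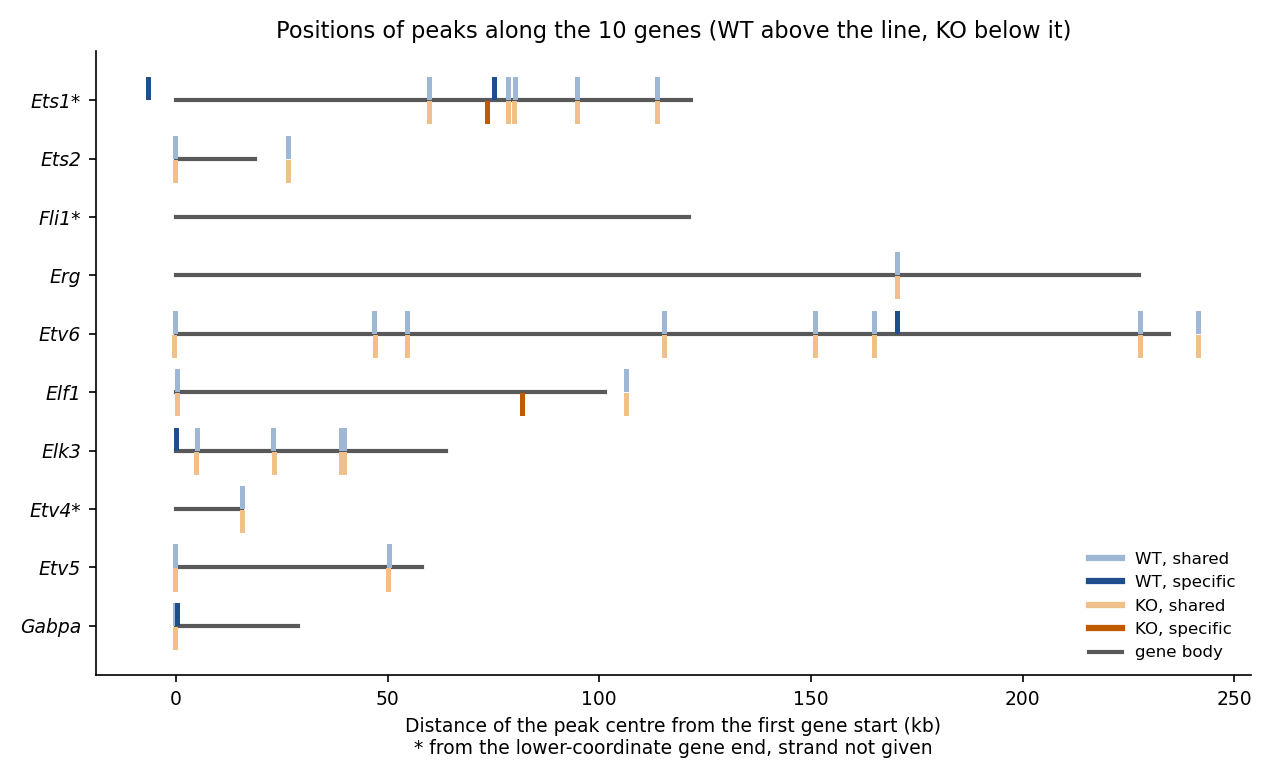
Distance of each peak centre from the first gene start in kb (horizontal axis) for each gene (rows), with WT peaks above and KO peaks below the grey gene body. For Ets1, Fli1 and Etv4, whose strand is not in the table, the distance is from the lower-coordinate gene end. Dark marks are specific peaks: 2 WT and 1 KO at Ets1, 1 WT each at Etv6, Elk3 and Gabpa, and 1 KO at Elf1.

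Ets1 encodes the founding member of the family, a transcriptional activator that is activated by MAP kinase signalling. The gene spans 121580 bp at chr9:32636241-32757820. It was the 1 member with specific peaks of both genotypes, and it had no peak within 1 kb of either gene end. Its strongest WT peak by −log10 q, at chr9:32714553-32714854, had a fold of 11.4 over local background and a −log10 q of 35.7. The KO peak there had a fold of 8.16 and a −log10 q of 24.6. A second shared peak at chr9:32695665-32696225 had −log10 q 25.4 in WT and 25.8 in KO. Another, at chr9:32716154-32716387, had −log10 q 13.9 in WT, and its KO partner was wider (407 bp against 234 bp) with 26.1. The shared peaks nearer the upper end of the gene were weaker. The one at chr9:32730803-32731243 had −log10 q 10.4 in WT and 8.30 in KO, and the one at chr9:32749895-32750047 had 4.51 in WT and 13.3 in KO. Values of the 2 lists depend on each library's depth and are set side by side without a comparison.

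The WT specific peaks of Ets1 lay in different settings. The first, at chr9:32629579-32629817, was outside the gene, 6.42 kb below its lower end, with a fold of 9.83 and a −log10 q of 15.1. No KO peak lay within 37.6 kb of it, and the KO peaks on either side had consecutive call numbers. Call numbers of the lists rise along each chromosome and skip where a call was removed before deposit. No numbered KO call, kept or removed, thus lay in that stretch, which held for 12.9% of WT specific peaks in the whole list. The second, at chr9:32711131-32711465 in the gene body, had a fold of 8.0 and a −log10 q of 19.3. It was the 1 specific peak of the 10 genes that reached the median strength of its list (−log10 q 16.1 for WT). Only 969 bp from it lay the KO specific peak of Ets1, at chr9:32709443-32710161, which was broad (719 bp) and weak (fold 4.44, −log10 q 6.60). The 2 intervals do not overlap, and 1 call number of the other list was missing beside each.

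Ets2 encodes the closest relative of ETS1 and is likewise a target of MAP kinases. The gene spans 18643 bp at chr16:95702407-95721049 and had 2 shared peaks and no specific one. The promoter peak ran from 543 bp before to 338 bp after the gene start in WT (fold 9.42, −log10 q 18.9), and from 561 bp before to 298 bp after it in KO (fold 9.86, −log10 q 21.2). The peak beyond the gene, at chr16:95728820-95729216, had a fold of 10.9 and a −log10 q of 22.6 in WT and a fold of 12.7 and a −log10 q of 28.0 in KO. Both intervals of each pair coincided almost fully, with 91.4% to 98.9% of each peak covered by its partner.

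Fli1 and Erg form the ERG subfamily and are best known for their roles in blood and endothelial cells. They were the least open members. Fli1, at chr9:32422204-32543432, lies next to Ets1 with no protein-coding gene between them. Its window held no peak in either list. Of 2427 protein-coding genes of at least 100 kb, 430 (17.7%) had no peak in either list, and Fli1 was the 1 of the 5 members of that length among them. The nearest peak on the Ets1 side was shared, 48.3 kb from Fli1 in WT (chr9:32591777-32592004, −log10 q 17.0) and 48.4 kb in KO (−log10 q 11.2). On the other side the nearest peak was 764 kb away in both lists. Erg, which lies beside Ets2 on chromosome 16 at chr16:95359169-95586600, had 1 shared peak in its body, 170.4 kb from the first gene start. That peak was weak in both lists, with a fold of 6.73 and a −log10 q of 7.88 in WT (chr16:95416041-95416254) and 7.54 and 9.77 in KO. None of its 3 gene starts had a peak. Between Erg and Ets2, outside both windows, each list had 2 peaks, all shared.

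Etv6 encodes TEL, a repressor with a pointed domain through which it polymerises. The gene spans 234459 bp at chr6:134035700-134270158, and its open regions were spread along its whole length. Of its 9 WT peaks, 8 had a KO partner, and all 8 KO peaks had a WT partner. The strongest lay 115.3 kb from the gene start, at chr6:134150743-134151281, with a fold of 16.8 and a −log10 q of 51.9 in WT. Its KO partner had a fold of 13.2 and a −log10 q of 35.3. The next, at chr6:134089918-134090573, had −log10 q 49.7 in WT and 43.9 in KO, the highest KO value at this gene. The peaks at chr6:134186371-134187090 and chr6:134200482-134200922 had −log10 q 26.1 and 28.6 in WT, and 14.0 and 27.8 in KO. The 3 shared peaks away from the gene start that were weakest in WT, at 46.9, 227.7 and 241.5 kb, had −log10 q 11.7, 15.1 and 10.0 in WT, and 17.2, 12.7 and 5.54 in KO. The WT specific peak lay 170.3 kb from the start, at chr6:134205744-134206331, 4.82 kb from the next WT peak. It was 588 bp wide, with a fold of 7.0 and a −log10 q of 10.1. Between the KO peaks on either side, at chr6:134200433-134200902 and chr6:134263187-134263629, 1 KO call number was missing.

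Elf1 encodes an activator that is prominent in lymphoid cells. The gene, at chr14:79481174-79582491, had 2 strong shared peaks with little between them. The promoter peak had a fold of 13.7 and a −log10 q of 43.5 in WT and a fold of 12.4 and a −log10 q of 42.3 in KO. The peak beyond the gene, at chr14:79587194-79587977, had 14.6 and 43.1 in WT and 13.1 and 42.0 in KO. The KO specific peak lay in the gene body 81.8 kb from the first start, at chr14:79562773-79563229. It had a fold of 5.94 and a −log10 q of 6.64, which is at percentile 9.13 of the KO list. The nearest WT peak was 24.0 kb away, and 1 WT call number was missing in the stretch.

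Elk3 encodes Net, a ternary complex factor that acts with serum response factor and switches from repression to activation on MAP kinase signalling. The gene, at chr10:93247415-93311159 on the minus strand, was the 1 member with a gene start open in one list only. The WT specific peak at chr10:93310966-93311249 ran from 90 bp before to 193 bp after the start, over the stretch printed above. It was weak, with a fold of 5.89 and a −log10 q of 6.61, at percentile 13.4 of the WT list. The nearest KO peak lay 4.34 kb away, and 1 KO call number was missing between the KO peaks on either side. The 4 peaks in the gene body were shared. The broadest, at chr10:93287637-93288662, 23.0 kb from the start, had a fold of 13.7 and a −log10 q of 49.1 in WT. In KO it had 13.8 and 51.1, the highest −log10 q of any KO peak of the 10 genes. A pair of neighbouring peaks 387 bp apart in WT lay further in. The one at chr10:93271159-93271541 had −log10 q 40.6 in WT and 18.9 in KO, and the one at chr10:93271929-93272275 had a fold of 7.17 in WT and 7.10 in KO. The peak at chr10:93306067-93306287 had −log10 q 9.71 in WT and 14.1 in KO.

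Etv4 and Etv5 belong to the PEA3 subfamily, whose genes are classic targets of fibroblast growth factor signalling. All their peaks were shared. Etv4, a short gene at chr11:101769747-101785310, had 1 peak across its higher-coordinate end. It had a fold of 13.0 and a −log10 q of 28.6 in WT (chr11:101785251-101785534) and a fold of 9.76 and a −log10 q of 21.0 in KO. Etv5, at chr16:22381313-22439570, had the WT peaks with the highest −log10 q of the 10 genes. The peak at chr16:22389164-22389466, 50.3 kb from the start, had a fold of 22.1 and a −log10 q of 77.2, at percentile 98.1 of the WT list. In KO it had a fold of 17.5 and a −log10 q of 50.6, at percentile 94.2 of that list. The promoter peak lay wholly before the start, from 572 to 16 bp in WT and from 524 to 40 bp in KO, with −log10 q 62.3 in WT and 39.1 in KO.

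Gabpa encodes the DNA-binding subunit of GABP, a factor that acts on mitochondrial and neuromuscular synapse genes. The gene, at chr16:84834891-84863783, was open at its start alone. The start used, chr16:84835124 of the promoter table, lies inside that span, and both promoter peaks crossed the lower end of the span. The shared promoter peak ended 5 bp before the start in WT (fold 15.3, −log10 q 45.2) and 22 bp before it in KO (fold 12.9, −log10 q 39.5). The WT specific peak, at chr16:84835353-84835656, began 229 bp after the start, 233 bp from the end of the WT promoter peak and 250 bp from the KO one. Its fold of 4.42 and −log10 q of 4.89 were the lowest of the 7 specific peaks of the 10 genes. Between the neighbouring KO peaks, 3 call numbers were missing. No other KO peak lay within 43.6 kb of the KO promoter peak, so that stretch was long. It was the 1 WT specific peak with a KO peak within 500 bp.

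**Figure D2:**
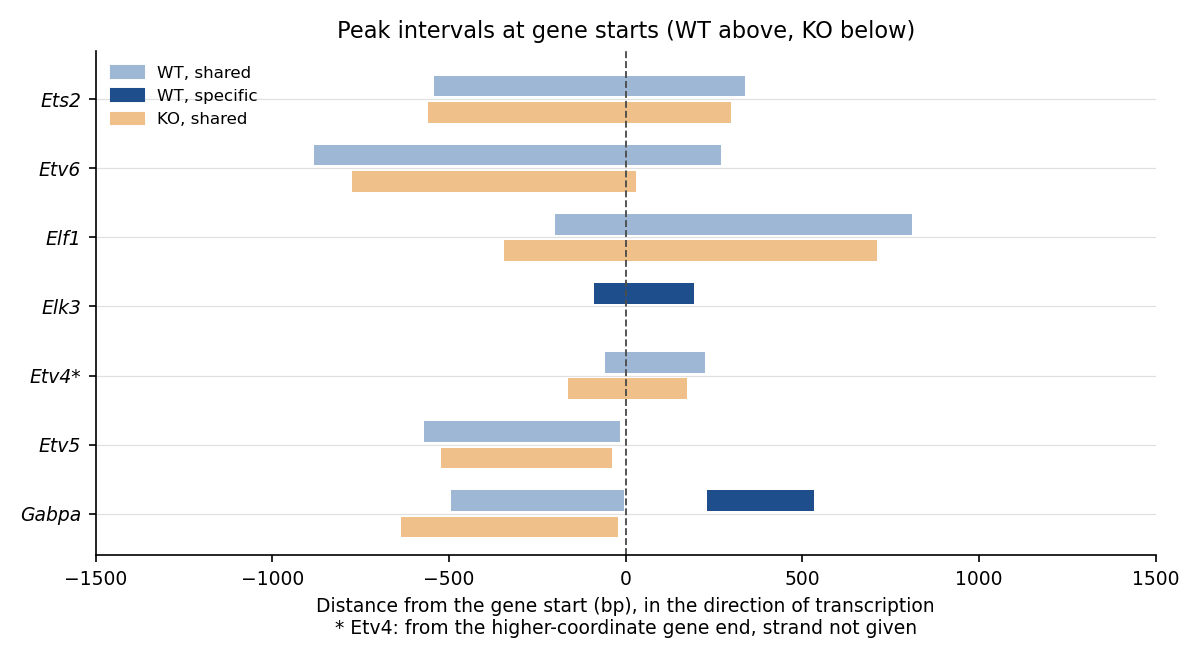
Peak intervals around gene starts, in bp from the start in the direction of transcription (horizontal axis), for the 7 genes with a peak there (rows), with WT above and KO below. For Etv4, whose strand is not in the table, the distance is from the higher-coordinate gene end and runs in rising coordinates, whatever the direction of transcription. All rows but Elk3 have a shared pair. The dark bars are the WT specific peaks of Elk3, across the start, and of Gabpa, 229 to 532 bp after it.

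Gene starts were compared across the 10 genes. A peak of both lists lay within 1 kb of a gene start at 6 of the 10 genes (60.0%), beside 40.0% of all 21631 protein-coding genes. Elk3 had a WT peak alone (10.0% of the 10 genes, beside 4.89% of all protein-coding genes), and Fli1 and Erg had none. Ets1 had none at either gene end, and any start inside that gene could not be examined. For genes without an entry in the promoter table, either gene end was used. The promoter peak of Elf1 ran from 201 bp before to 810 bp after the start in WT and from 344 bp before to 711 bp after it in KO. At Etv6 the WT peak was 1152 bp wide and ended 270 bp after the start, and the KO peak was 803 bp wide and ended 28 bp after it. Its fold was 10.0 and its −log10 q 22.2 in WT, and they were 7.41 and 12.4 in KO. Of the 8 WT peaks at gene starts, 2 were specific, and of the 6 KO peaks none was. Gene bodies held 19 peaks in each list, of which 2 in each were specific. Over all positions, 27.3% of the WT list and 9.59% of the KO list were specific. The shares over all gene-start or gene-body peaks were not computed, so these counts only describe the 10 genes.

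**Figure D3:**
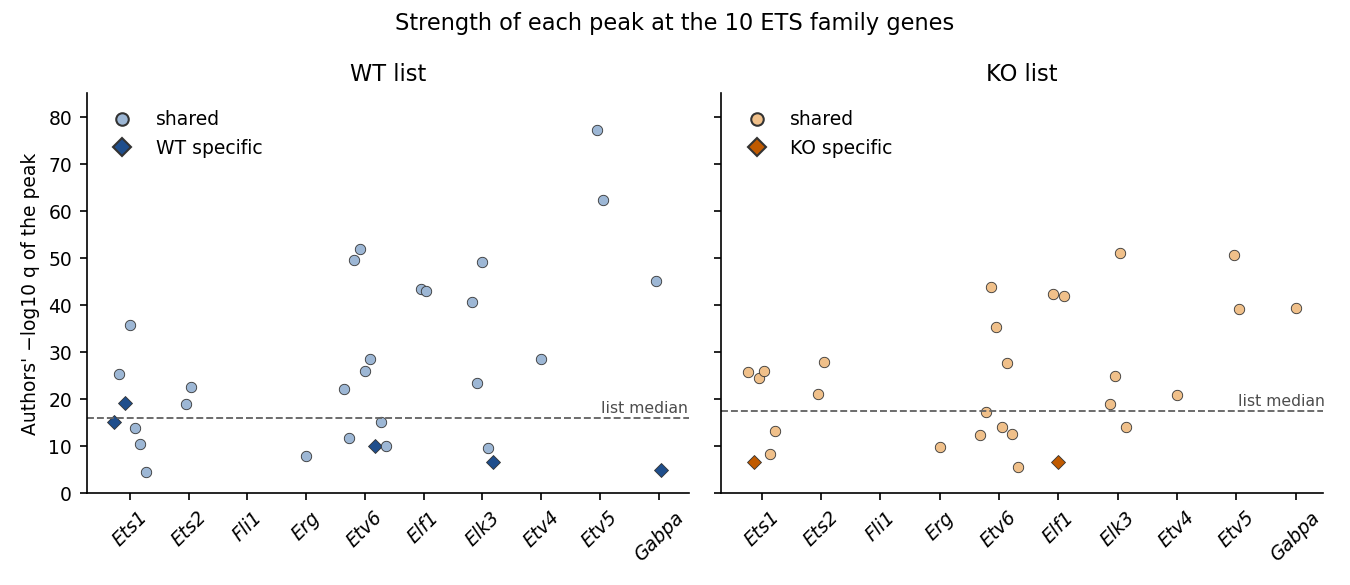
The authors' −log10 q of every peak (vertical axis) by gene (horizontal axis) in the WT list and the KO list, with shared peaks as circles, specific peaks as diamonds and the median of the whole list as a dashed line. Of the specific peaks, 1 lies above its list median, at 19.3 in WT at Ets1. The others lie below it, down to 4.89 in WT and at 6.60 and 6.64 in KO. Etv5 is highest in WT with 77.2.

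The peaks of the 10 genes had a higher median −log10 q than their lists. The median −log10 q was 22.6 for the 31 WT peaks, against 16.1 for the WT list, and 22.9 for the 28 KO peaks, against 17.6 for the KO list. At or above the list median lay 61.3% of the WT peaks and 60.7% of the KO peaks. Strong peaks are seldom specific. Of all WT peaks at or above the median, 6.17% were WT specific, and of the 19 at the ETS genes 1 was. Of all such KO peaks 1.45% were KO specific, and of the 17 at the ETS genes none was. The part of peak strength in these specific shares was not tested. Median width was 441 bp in WT, against 371 bp for the list, and 492.5 bp in KO, against 421 bp.

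The other 16 genes of the family (Fev, Etv1, Etv2, Etv3, Erf, Elk1, Elk4, Elf2, Elf3, Elf4, Elf5, Ehf, Spdef, Spi1, Spib and Spic) had fewer peaks, with lower medians. A peak of either list was found at 11 of them (68.8%) and at 9 of the 10 members (90.0%), beside 65.8% of all protein-coding genes. Fev, Ehf, Spdef, Spib and Spic had none. Of the 21 WT peaks at the 16 genes, 5 (23.8%) were WT specific, beside 27.3% of the whole WT list. Of their 20 KO peaks, 4 (20.0%) were KO specific, beside 9.59% of the whole KO list. A WT specific peak was present at 4 of the 11 genes (36.4%), beside 38.4% of protein-coding genes with a peak. A KO specific peak was also present at 4 of the 11 (36.4%), beside 11.3%. These shares rest on 5 and 4 peaks. The median −log10 q of the peaks at the 16 genes was 11.6 in WT and 12.3 in KO. The WT specific peaks lay at Etv3, Elk4 and Elf3 (1 each) and Elf4 (2). Elf3, an epithelial factor, had only that peak, 9662 bp before its start and also in the window of Rnpep. The WT specific peak of Etv3 lay outside the gene, also in the window of Etv3l. Of the Elf4 ones, 1 lay outside the gene, also in the window of Bcorl1. The KO specific peaks lay at Erf, Elk4, Elf2 and Elf5 (1 each). At Elk4, another ternary complex factor, the WT specific peak ended 15 bp below a gene start with a −log10 q of 7.97, and the KO specific peak lay 1276 bp from it with 15.0. At Erf, a repressor controlled by ERK, the KO specific peak covered the start, with a −log10 q of 13.5 and no WT call number missing beside it. At Elf5 the KO specific peak, at chr2:103411329-103411750, was the only peak of the gene, with a −log10 q of 9.04.

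Removed calls were common beside the specific peaks of the 10 genes, as they were in the whole lists. A skipped KO number lay beside 4 of the 5 WT specific peaks, and beside 87.1% of all WT specific peaks. A skipped WT number lay beside 2 of the 2 KO specific peaks, and beside 87.4% of all KO specific peaks. Where in such a stretch the removed call lay is not in the lists.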

How the data were processed

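ATAC-seq peak lists of growth medium were used: the full WT and KO lists, the shared list and the 2 specific lists, 5 in all. They have the columns of a narrowPeak file and no header. The fold, a ratio of the peak over local background, and the −log10 q are the deposited values of the authors for each peak. Every peak name carries the label of the replicate 1 library, and the use of replicates 2 and 3 is not stated. The build is mm10, per the submitters' processing notes, and was read with RefSeq gene and promoter tables of GRCm38.p6. The aligner, peak caller, Tn5 offset and the filter that removed numbered calls are not given in the sources used here, and each can move peak edges and counts.

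A centre in the gene or within 10 kb assigned a peak. All 10 genes were in the gene table. An overlap of 1 bp gave exactly the deposited classes. Exons are not in the tables, so positions are gene start, gene body or outside. The genes named are all members, every specific peak, and the other family genes with a specific peak, with further genes of the family named for counts of no peak. Genes that share a member's peak, or a specific peak of another family gene, were also named. Members and lists were chosen with earlier results of these data known. Alternatives in the window, assignment, overlap, strength and start distance were computed. With 1 list of values per genotype and no read counts, there is no replicate error, no p-value and no depth. Functions were checked on simulated data and against bedtools (11 of 11 checks passed), using Python 3.11.15, numpy 2.4.6 and pandas 2.3.3.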

Additional observations from a re-analysis of the deposited data

How the results depend on the processing

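No paired analysis was possible because each list holds values of 1 library per genotype, and for the same reason no replicate could be left out. Of 64 alternatives over 7 counts, 46 stayed within 1.5 times of the value reported. The 6 genes with a start open in both lists were 6 under each of the 4 alternatives of that count. Requiring a −log10 q of at least 10 left 3 of the 5 WT specific peaks at 2 of the 4 genes, and 0 of the 2 KO specific peaks at 0 of the 2 genes. At the other ETS genes it left 2 WT specific and 2 KO specific peaks. A −log10 q at or above the list median left 1 WT specific peak at 1 gene and 0 KO specific peaks at 0 genes, and 1 and 0 at the other ETS genes. These thresholds remove weak peaks by construction. Assigning peaks to the nearest gene end gave 12 of 52 WT (23.1%) and 5 of 45 KO peaks (11.1%) as specific. The latter lay at 4 genes. The main rule gave 16.1% and 7.14%, beside 27.3% of the WT list and 9.59% of the KO list. The KO share was thus below that of its list by the main rule and above it by the nearest gene end. At the other ETS genes, the gene body alone gave 1 WT specific and 2 KO specific peaks, and a window of 25 kb gave 9 WT specific peaks. Fewer or more peaks were assigned under these rules, and the specific shares could move too. Depth limits what an absent peak shows, and it is unknown.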

Other observations

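Open chromatin nearest to an ETS gene reached well beyond the 10 kb windows at Ets1 and Ets2. By nearest gene end, Ets1 had 17 WT peaks and 12 KO peaks, of which 7 and 2 were specific to their list. For Ets2 the same counts were 13 and 11 peaks, with 3 and 1 specific. Fli1 had none in either list by this rule too. Elf1 had 0 WT peaks and 1 KO peak, its KO specific one, so its shared peaks went to neighbouring genes. Erg had 2 WT and 3 KO peaks, and its KO specific peak, at chr16:95335193-95335388, lay 23.8 kb below the gene with a fold of 5.18 and a −log10 q of 5.79. Gabpa had 1 WT peak by this rule, and its WT specific peak went to a neighbouring gene. Within 25 kb, Etv4 gained a WT specific peak at chr11:101756779-101756913 with a fold of 9.82 and a −log10 q of 14.6.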
